A study of Mus musculus with 31 samples.

Results

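The cytosolic ribosomal protein genes were followed on the microarray of E13.5 mouse eyes. Members were the non-control probes whose gene name begins with Rpl or Rps and a digit or p, without pseudogene names (-ps), the Rps6k kinases and the Rpp genes, and with a mean signal above 500 over the WT eyes. The name held for 190 probes of 85 genes, and 178 probes of 81 genes passed the limit on signal, out of 14063 probes of 11435 named genes or transcripts that passed it. Of the 81 genes, 76 encode proteins of the ribosome itself and 5 are paralogs or carry the name without being core ribosomal proteins. The small subunit is covered by 63 probes of 30 genes, the large subunit by 105 probes of 43 genes and the stalk by 5 probes of 3 genes. The limit was applied to WT eyes, and 12 probes fell below it. The closest below was Rps25 A_52_P436318 with a mean of 477, and the closest above was Rpl39 A_66_P126080 with 536.

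The study asked what loss of Ftx, a gene of the X-inactivation center that makes a long noncoding RNA, does to gene expression in the embryonic eye. Eyes that looked normal had their pigmented epithelium layer taken off, and their total RNA was labelled with Cy3 and hybridized to 1-colour Agilent arrays. The groups were WT females (3 eyes), WT males (3 eyes), Ftx-/Y males (3 eyes) and homozygous Ftx-/- females (11 eyes, with 2 arrays each that were averaged), all C57BL/6N embryos at embryonic day 13.5. The deletion is carried in every cell, and the WT female eyes are numbered 1, 2 and 4.

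A ribosome joins a small subunit, which reads the mRNA, and a large subunit, which forms the peptide bond, and each contains many different proteins of which most are present once. Rplp0, Rplp1 and Rplp2 build the flexible stalk of the large subunit that receives the elongation factors. The messages of these proteins typically begin with a C followed by a run of pyrimidines, the terminal oligopyrimidine (TOP) motif, through which mTOR signalling and Larp1 set their translation as a group. Ribosomal protein messages are abundant in growing tissue such as the embryonic retina and lens, and several ribosomal protein mutants in the mouse have eye, pigment or patterning defects.

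The sequences around annotated transcription starts are shown for some members with called probes and for X-linked members, to let pyrimidine runs near the start be seen. Where a gene had several annotated starts, the one with the longest run was taken, and a stretch with a run was centred on it. Other members with called probes are not shown, so these stretches do not give the share of members with a run. Each stretch holds 30 bases from RefSeq (GRCm38.p6), read in the direction of the gene, with the longest run of C and T of at least 8 bases in capitals where there was one.
Rps6, chr4:86857349-86857378, minus strand: ggaagtcgggCCTCTTTTTCgtgacgcctc
Rpl31, chr1:39367825-39367854, plus strand: tcgccacaCCTCTTCCTCCTCgcctccccg
Rpl14, chr9:120571501-120571530, plus strand: agggcgggCCCTCTCTCTTCTCgctgagcg
Rps15a, chr7:118116143-118116172, minus strand: gcccggcccaCTCTCTTTCTgccatcttcc
Rplp2, chr7:141447636-141447665, plus strand: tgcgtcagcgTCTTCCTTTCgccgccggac
Rpl36a, chrX:134585639-134585668, plus strand: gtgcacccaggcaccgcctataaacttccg
Rpl10, chrX:74270801-74270830, plus strand: gttgttacagtggaagataggccgcctata
Rpl39, chrX:37085224-37085253, minus strand: gagtcatccaTCCCCCCCTaagctccgcct
Rps4x, chrX:102189377-102189406, minus strand: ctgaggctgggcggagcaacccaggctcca
The annotated start is base 12, 17 and 16 of the stretches of Rps6, Rpl14 and Rplp2, inside the run. It is base 27 and 26 in Rpl31 and Rps15a, after the run, and base 32 counted from the beginning of the Rpl39 stretch, beyond its end. In these the run was not at the beginning of the annotated message.
Such a run lay within 30 bases on either side of a start in 34 of 59 member genes with an entry (57.6%), against 6965 of 27025 genes of the table (25.8%). The search used the sense strand alone, and 22 member genes had no entry. The stretches of the X-linked Rpl36a, Rpl10 and Rps4x held no such run and that of Rpl39 held one, and a missing run says only that these letters were not in the window.

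The array reads each message through probes of 60 bases, and the probes of one gene can sit at different places in it. Stretches of 30 bases are shown for genes whose probes moved apart, for a pair of probes with a wide spread within groups (Rps21, Rpl11) and for a pair with a small one (Rps6, Rps12), with the polyadenylation signal AATAAA in capitals, and with the mm9 position that the files give for the whole probe.
Rps16 A_55_P2132844, chr7:29137530-29137589, plus strand: gatatcctcattcaatactatcggaccctg
Rps16 A_55_P1963061, chr7:29137657-29137716, plus strand: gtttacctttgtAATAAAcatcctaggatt
Rpl14 A_55_P2137461, chr7:52580970-52581029, plus strand: gctacacagaatAATAAAagttctttttga
Rpl14 A_55_P2070913, chr9:120483487-120483546, plus strand: gctacacagaatAATAAAggttctttttga
Rps21 A_52_P740562, chr2:179993084-179993143, plus strand: gaatttgttacaAATAAAagttttaagtac
Rpl11 A_55_P2139673, chr4:135605863-135605922, minus strand: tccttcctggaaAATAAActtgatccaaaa
Rps6 A_55_P1963817, chr4:86500748-86500807, minus strand: atgccgacgtattgctctgaagaagcaacg
Rps12 A_55_P1989328, chr10:23505428-23505711, minus strand: caagaaactaggggaatgggtaggcctctg
The stretches of the pair of Rpl14 probes differ at 1 of 30 bases, and the files place the first of them on chromosome 7 although Rpl14 lies on chromosome 9. AATAAA, searched on the probe's own strand, was held by 56 of the 178 member probes (31.5%) and by 16% of all probes tested.

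Every member spot, 187 on each array, was well above background on all 31 arrays, and none was saturated. The arrays of one eye differed by a median SD of 0.051 (log2) per member probe, and eyes within a group by 0.121, against 0.065 and 0.144 over all probes tested. The Ftx probe passed the scanner's background criterion on all WT arrays (3 of 3 in each sex), on 0 of 3 arrays of Ftx-/Y males and on 9 of the 22 of Ftx-/- females. Hybridization used 4 slides. Slide 1 carried the WT eyes of both sexes with Ftx-/Y eye 1, and slide 2 the other Ftx-/Y eyes (2 and 3) together with Ftx-/- eyes 1 to 3. Slide 3 carried Ftx-/- eyes 4 to 7 only, and slide 4 the remaining Ftx-/- eyes, 8 to 11. WT females and Ftx-/- females never shared a slide, so slide and genotype cannot be told apart in females except through the Ftx-/Y eyes. Slide 1 fell in scan 1 and slides 2 to 4 in scan 2, so these groups did not share a scan either. Nothing in the labels says whether eyes came from separate litters, and p-values measure the spread between these eyes.

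In females, 25 ribosomal protein probes were called between the genotypes, and the share called depended on the slide. With limma over all probes and Benjamini-Hochberg adjustment, 16 member probes rose and 9 fell (adjusted p under 0.05), together 14% of 178, against 35.1% of all probes tested (17.3% higher, 17.8% lower). The split moved with the processing. With the GC trend taken out 35 rose and 2 fell, and under 75th percentile scaling more fell than rose. For the Ftx-/- eyes of slides 2, 3 and 4 taken alone against WT females, 41.6%, 43.8% and 28.7% of the members were called, against 38.1%, 49.1% and 34.6% of all probes, so that on slide 2 the share was the higher among members. The log2 change was within 0.1 of 0 for 55.6% of the member probes and for 28.3% of all probes. That share averages over slides, and on slides 2, 3 and 4 alone it was 36.5%, 32% and 42.1% of the members, against 26.1%, 22.3% and 29.4% of all probes. With the fold limits of 1.2 and 0.8 and an unadjusted p under 0.05, 7 rose and 3 fell, against 26.8% of all probes. The median log2 change over the genes was 0.017, with the median of all probes at -0.011, and it turned to -0.10 when arrays were scaled to their 75th percentile. In RNA from an eye with its pigmented layer taken off, fewer cells of a type and less RNA per cell cannot be told apart. With slide as a block no member probe was called (19 at an unadjusted p under 0.05, and 0.0782% of all probes called), and without WT female eye 1 the count was 14.

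**Figure D1:**
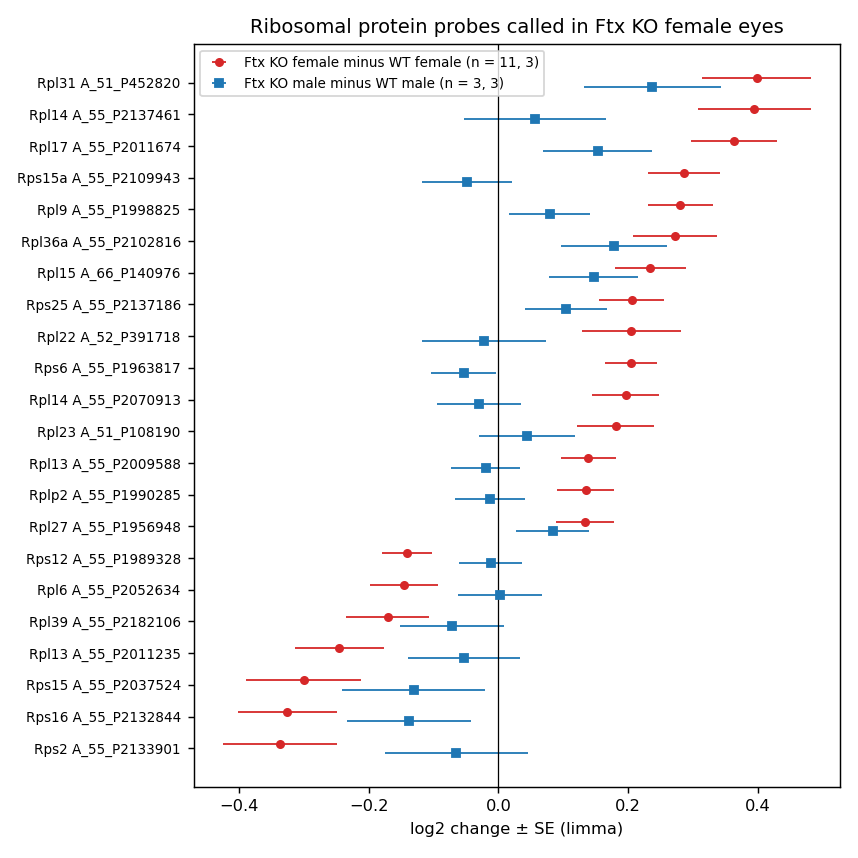
Log2 change of 22 of the 25 member probes with an adjusted p under 0.05 in Ftx-/- females, with standard errors from limma, for Ftx-/- against WT females (red circles) and Ftx-/Y against WT males (blue squares). The female changes run from -0.34 (Rps2 A_55_P2133901) to 0.40 (Rpl31 A_51_P452820) and none of the male changes passed the adjusted test; under 75th percentile scaling the rises of Rplp2, Rpl13 A_55_P2009588 and Rpl27 turned below 0.

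In the small subunit 4 of 63 probes rose and 6 fell in Ftx-/- females (15.9% called, against 35.1% of all probes). Rps6, the protein that S6 kinases phosphorylate downstream of mTOR, rose on probe A_55_P1963817. Its signal was 104380, 103960 and 104730 in WT females and 114700 to 126650 (median 119620) in Ftx-/- females. The groups did not overlap, and the log2 change was 0.20 ± 0.040 (SE, n = 3 and 11 eyes, adjusted p = 0.00088). The other Rps6 probes had changes of -0.04 and -0.11 that did not pass the test. Rps15a, a protein of the small subunit body, rose on A_55_P2109943, from 89087, 97679 and 91851 in WT females to 105170 to 122570 (median 112460). All 11 Ftx-/- eyes were above all WT eyes, with a log2 change of 0.29 ± 0.055 (adjusted p = 0.00085). The other Rps15a probe gave -0.17 (adjusted p = 0.181). Rps25, which is used by some viral and cellular internal ribosome entry sites, rose by 0.21 ± 0.050 on its single tested probe (adjusted p = 0.0043).

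The falls in the small subunit were of similar size. Rps16 A_55_P2132844 read 70985, 73012 and 85230 in WT females and 52510 to 65385 (median 60683) in Ftx-/- females, without overlap. The log2 change was -0.33 ± 0.076 (adjusted p = 0.0032). Rps2 A_55_P2133901 gave 118860, 119060 and 115670 in WT females and 85152 to 111040 (median 90878) in Ftx-/- females. All 11 mutant eyes were below the WT eyes (-0.34 ± 0.088, adjusted p = 0.0065), but the files place this probe on chromosome 12, away from Rps2 on chromosome 17, and the Rps2 probe A_55_P2048454 had a change of 0.25 (adjusted p = 0.060). Rps15 A_55_P2037524 fell by 0.30 on the log2 scale, with WT signals of 86014, 98820 and 76417 against 63616 to 82534 (median 69765), so that the groups overlapped. Rps12 A_55_P1989328 fell by 0.14. With the trend with base composition taken out the change of Rps15 was 0.024. Over 26 alternatives the change of Rps2 A_55_P2133901 ran from -0.55 to -0.013, and it was called in 21 of them.

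Rpl13, a large subunit protein, was one of 2 genes called in both directions. Its probe A_55_P2009588, at the gene's own locus, read 146280, 164510 and 166530 in WT females and 167680 to 183080 (median 174420) in Ftx-/- females, a change of 0.14 ± 0.042 (adjusted p = 0.017) that turned to -0.013 under 75th percentile scaling. Its probe A_55_P2011235, which the files place on chromosome 4 and not at Rpl13 on chromosome 8, read 135980, 127880 and 125110 in WT females and 97929 to 123790 (median 106710), a change of -0.25 ± 0.069 (adjusted p = 0.0099). The groups did not overlap on either probe.

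In the large subunit 11 of 105 probes rose and 3 fell (13.3% called), where 17.3% of all probes rose and 17.8% fell. Rpl31, near the exit of the peptide tunnel, had the largest called rise on A_51_P452820, with 3119, 2594 and 2688 in WT females and 3020 to 4026 (median 3751) in Ftx-/- females. The highest WT eye overlapped the lowest mutant eye, and the log2 change was 0.40 ± 0.084 (adjusted p = 0.0016). The bright Rpl31 probes A_55_P2038299 and A_55_P2180477 had changes of -0.03 and 0.08, neither of which passed the test. Rpl14 A_55_P2137461 read 86350, 100560 and 100890 in WT females and 108990 to 158170 (median 123570) in Ftx-/- females. The groups did not overlap on this probe (0.39 ± 0.087, adjusted p = 0.0022). The probe A_55_P2070913 at the Rpl14 locus, whose printed stretch differs at 1 of 30 bases, rose by 0.20 ± 0.052, from 179170, 212320 and 212050 to a range of 213910 to 241080. The dimmer Rpl14 probe at that locus, A_51_P232858, had a change of -0.09 (adjusted p = 0.35), with 9 of 11 Ftx-/- eyes below the WT mean. Whether these probes tell RNA of the copy from RNA of the gene was not tested.

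Rpl9, a large subunit protein at the base of the stalk, rose on A_55_P1998825 from 205840, 228610 and 235530 in WT females to 246570 to 280630 (median 272910). The groups did not overlap (0.28 ± 0.050, adjusted p = 0.00045). Rpl17, another protein of the tunnel exit, was measured by 7 probes, the most for any gene, and rose on 1 of them. That probe, A_55_P2011674, read 71974, 78281 and 73334 in WT females and 85240 to 108630 (median 94902) in Ftx-/- females (0.36 ± 0.067, adjusted p = 0.00058), and the changes of the 7 probes ranged from -0.25 to 0.36. Smaller rises were seen for Rpl36a, Rpl15 (0.23), Rpl22 (0.21), Rpl23 (0.18), Rpl13 A_55_P2009588 (0.14) and Rpl27 (0.13), of which the last 2 turned to -0.013 and -0.012 under 75th percentile scaling. Each of these rises was called on 1 probe of its gene, and other probes of Rpl15 and Rpl27 had changes of -0.10 and -0.07 that did not pass the test. The falls were Rpl13 A_55_P2011235 (-0.25), Rpl39 A_55_P2182106 (-0.17) and Rpl6 A_55_P2052634 (-0.15). Of the 25 called probes, 24 moved the same way in all 11 mutant eyes, and for 19 the groups did not overlap. Over all members, WT and Ftx-/- females did not overlap for 23 probes (12.9%), against 21.6% of all probes tested.

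In the stalk, Rplp2 rose on its single probe A_55_P1990285, with 238240, 254250 and 242470 in WT females and 256500 to 277980 (median 269530) in Ftx-/- females. The log2 change was 0.13 ± 0.043 (adjusted p = 0.022) and turned to -0.044 under 75th percentile scaling. The 3 probes of Rplp0 had changes of 0.09, 0.08 and 0.25 and that of Rplp1 0.02, none past the test. Rplp0 A_66_P105288 varied widely, from 61099 to 128050 over the Ftx-/- eyes. The 2 other Rplp0 probes stayed between 141240 and 171060 and between 259100 and 280420 in those eyes.

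No gene with several probes was called on all of them in one direction. In females, 22 of 81 genes (27.2%) had at least 1 called probe, against 39.6% of all 11435 genes, which had 1.23 probes each on average against 2.2 for the members. Of the members, 57 genes had more than 1 probe, and the probes of one gene differed by a median of 0.194 (log2) in their change. When the probes of a gene were averaged before the fit, 6 genes rose and 0 fell (7.41%), against 17.2% and 18% of all genes. The genes whose probes differed most were Rpl17 (0.61) and Rps2 (0.58).

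The comparison of Ftx-/Y with WT males found no member probe past the adjusted test, with 0.0213% of all probes called. At an unadjusted p under 0.05 there were 10 (5.62%, against 11.8% of all probes), with the fold limits 1 was higher and 1 lower (1.12%, against 5.62% of all probes), and the methods' t-test at its threshold called 1. The comparison rests on 3 eyes a group, with a median SE of 0.098 (log2) for a member probe in males against 0.078 in females. The highest of the consistent male values was Rps2 A_55_P2048454, at 82139, 76140 and 82952 in WT males and 89305, 108460 and 113740 in Ftx-/Y males (0.36 ± 0.124, adjusted p = 0.30). The 2 high eyes were those on slide 2. The lowest was Rps3 A_51_P318640, at 57990, 51754 and 43794 in WT males and 37292, 34150 and 31987 in Ftx-/Y males (-0.56 ± 0.218, adjusted p = 0.33). All Ftx-/Y eyes were below all WT eyes on this probe, while the other Rps3 probes had male changes of -0.08 and -0.10. Rpl12 A_55_P1952690 had a male change of -0.30 (adjusted p = 0.28) with 1 WT male eye missing after flagged spots were left out, and Rpl24 A_55_P2004333 one of -0.28 (adjusted p = 0.31). Rpl31 (0.24), Rpl36a (0.18), Rpl15 (0.15) and Rpl24 A_55_P2059556 (0.11) were other consistent positive values, none past the adjusted test. Male groups did not overlap for 10 member probes (5.62%), against 20.6% of all probes. The median over the genes was -0.025 (-0.00066 over all probes), and it was -0.12 under 75th percentile scaling (0.023 over all probes) and -0.0083 with the GC trend taken out (0.0099). With the series table, which is not normalized between arrays, it was -0.24 where the median of all probes was -0.091.

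The female change did not differ from the male change past the adjusted threshold for any member (0% of all probes tested). At an unadjusted p under 0.05 there were 9 (5.06%, against 13.8% of all probes), among which Rps6 A_55_P1963817 had the female change higher by 0.26 ± 0.064 (adjusted p = 0.15). On that probe WT males read 115310, 108430 and 118510 and Ftx-/Y males 112460, 108360 and 108850. WT females and WT males did not differ past the adjusted test on any member probe either (0.107% of all probes, with 10 members, 5.62%, at an unadjusted p under 0.05 against 10.3% of all probes).

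X-linked ribosomal protein genes are of interest in a line that lacks an X-inactivation center gene, since their dose could differ between XX and XY eyes. The 4 X-linked members Rpl10, Rpl36a, Rpl39 and Rps4x had 11 probes, of which 1 rose and 1 fell in Ftx-/- females, where 35.1% of all probes were called. None was called in males or between the WT sexes, where 0.0213% and 0.107% of all probes were called, and the differences between the WT sexes lay between -0.13 and 0.11. Rpl36a, a large subunit protein near the exit site for tRNA, rose on A_55_P2102816. WT females read 33466, 31354 and 32306 and Ftx-/- females 34552 to 44487 (median 39704), without overlap (0.27 ± 0.065, adjusted p = 0.0037). WT males read 31599, 30715 and 34513 and Ftx-/Y males 35021, 36913 and 37479, which was higher in all 3 eyes and not past the test (0.18 ± 0.082, adjusted p = 0.41). The arrays of one eye differed by an SD of 0.130 on this probe, more than the median of the members. The other Rpl36a probes had female changes of 0.12 and 0.08.

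**Figure D2:**
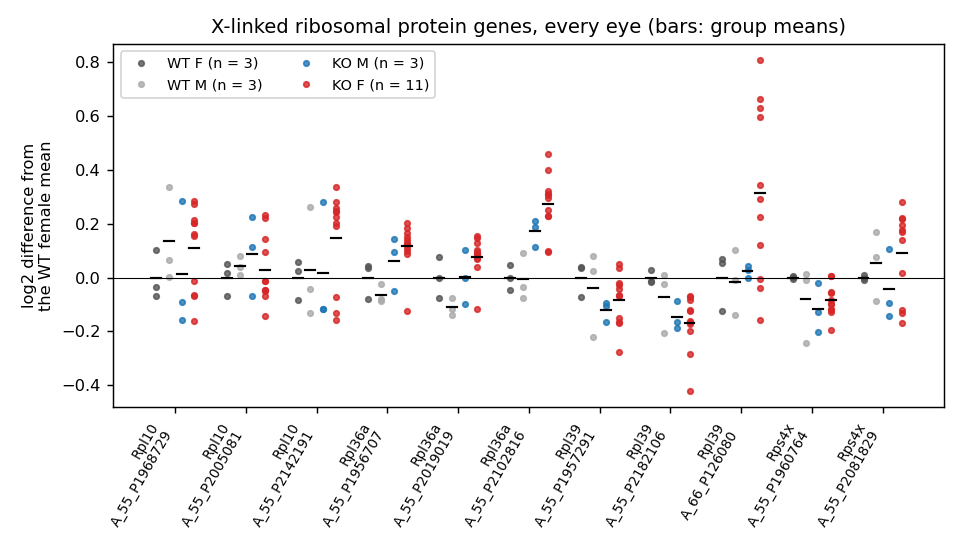
Log2 signal of every eye on the 11 probes of the X-linked members relative to the mean of WT females, with points for eyes and bars for group means. Rpl36a A_55_P2102816 lies above the WT females in all 11 Ftx-/- eyes and Rpl39 A_55_P2182106 below them, while Rpl39 A_66_P126080 spreads widely over the Ftx-/- eyes.

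Rpl39, a small protein in the wall of the peptide tunnel, fell on A_55_P2182106, from 109360, 106440 and 106110 in WT females to 80171 to 102410 (median 96060), a change of -0.17 ± 0.064 (adjusted p = 0.045). Its dim probe A_66_P126080, just above the signal limit, ranged from 482 to 941 over the Ftx-/- eyes, against 494, 565 and 559 in WT females. Rpl10, the protein that joins the large subunit late and is needed for subunit joining, had female changes of 0.03 to 0.15 on 3 probes, none past the test. The files place both Rps4x probes on other chromosomes, and their female changes were -0.09 and 0.09. A probe of Rpl36 that the files place on X, A_55_P2071326, had a female change of -0.20 (adjusted p = 0.118).

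None of the 5 paralogs and similarly named genes was called in either sex with limma (35.1% of all probes in females and 0.0213% in males). At an unadjusted p under 0.05 there were 2 of 5 in females (44.9% of all probes) and 0 in males (11.8%). Rps27l, a p53 target related to Rps27, read 24169, 32832 and 32066 in WT females and 29812 to 37868 (median 33006) in Ftx-/- females, a change of 0.19 ± 0.080 (adjusted p = 0.073), and -0.13 in males. Rps19bp1, which binds Rps19 and is not a ribosomal protein, read 6565, 6943 and 6723 in WT females and 4566 to 6614 (median 5936) in Ftx-/- females (-0.28, adjusted p = 0.065). The paralogs Rpl22l1 (0.07), Rpl36al (0.02) and the retrocopy named Rps4y2 in the files (-0.06) were closer to 0. Probes of Rpl3l, Rpl10l, Rpl39l and Rpl7l1, paralogs known from muscle, testis or elsewhere, had WT means of 10.9, 20.8 to 71.0, 9.08 and 356 and were not tested.

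Members known from mouse mutants or from the p53 response to free ribosomal proteins were followed as a list of 10 genes with 21 probes. In Ftx-/- females 1 of them rose (Rps6), none fell, where 35.1% of all probes were called, and changes ran from -0.19 to 0.20. Rpl24, mutated in the Belly spot and tail mouse with retinal and pigment defects, had female changes of 0.09, -0.19 and 0.08 on its 3 probes. Rpl38, mutated in the Tail short mouse with axial patterning defects, had -0.13 and -0.12. Rps19 (0.05) and Rps20 (0.07 and 0.08), altered in mice with dark skin, and Rps7 (0.15) did not pass the test. Rpl5 (0.10) and Rpl11 (0.07, 0.14 and 0.05), which bind Mdm2 when not in ribosomes, and Rps27a (0.10 and 0.18), which is made as a fusion with ubiquitin, did not pass it either.

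Within Ftx-/- females, the eyes on slide 2 stood apart from those on slides 3 and 4 on the ribosomal protein probes. The contrasts by slide were chosen after the data were seen, and they compare different eyes, so slide and eye cannot be told apart in them. In these eyes, 55 member probes were higher and 45 lower on slide 3 than on slide 2, 56.2% of the members against 37.9% of all probes. Slide 4 against slide 2 gave 68 (38.2%, against 10.7% of all probes) and slide 3 against slide 4 gave 25 (14%, against 18.3%). On slide 2 itself, Ftx-/- and Ftx-/Y eyes differed for none of the members (0.0924% of all probes), with 8 members at an unadjusted p under 0.05 (4.49%, against 8.78% of all probes). On slide 1, Ftx-/Y eye 1 and the WT males differed for none (0.064% of all probes), with 13 members at an unadjusted p under 0.05 (7.3%, against 5.75% of all probes). This sets 1 eye against 3, with the lone eye taken to vary like the others. The Ftx-/Y eyes of slide 2 differed from WT males for 28 (7.62% of all probes). Against WT females, 74 member probes were called for the Ftx-/- eyes of slide 2 (41.6%, against 38.1% of all probes), 78 for slide 3 (43.8%, against 49.1%) and 51 for slide 4 (28.7%, against 34.6%).

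Individual probes moved far with the slide. Rps21 A_52_P740562 read 25293, 23020 and 25441 in WT females and 14115 to 42701 over Ftx-/- eyes, with log2 differences from WT females of -0.75, 0.59 and 0.06 on slides 2, 3 and 4. In males it read 21753 in Ftx-/Y eye 1 and 12874 and 13835 in the eyes on slide 2, against 21041, 20732 and 22043 in WT males. Its overall female change was 0.03 ± 0.286. Rpl7a A_55_P2037922 had slide differences of -0.57, 0.86 and 0.24, Rpl13 A_55_P1991151 of -0.77, 0.48 and 0.20, and Rpl4 A_55_P2014807 of -0.75, 0.29 and 0.12. The widest was Rpl17 A_55_P2057519, lower by 1.69 on slide 2 than in WT females and 2.32 higher on slide 3 than on slide 2, with a spread within groups of 1.25 (SD, log2). Rps24 A_55_P1993880 also differed between the arrays of the same eye, with an SD of 0.95.

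**Figure D3:**
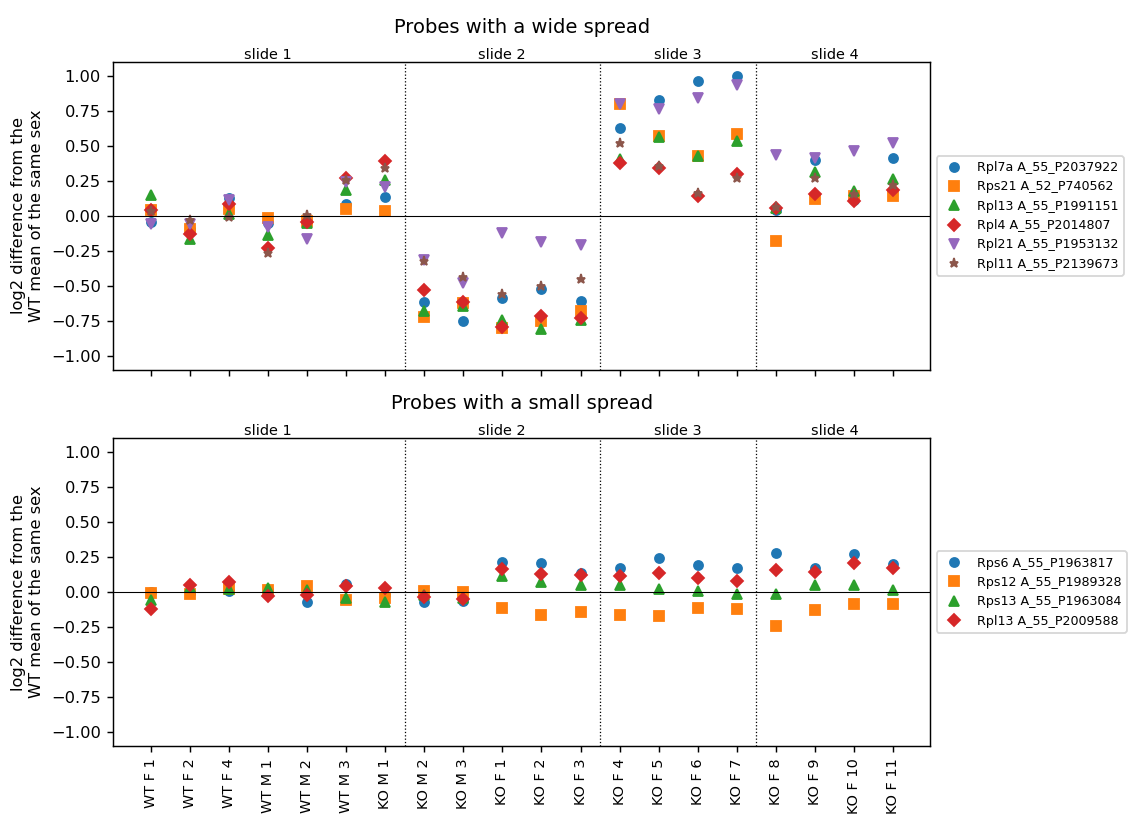
Log2 difference of each eye from the WT mean of the same sex, with eyes ordered by slide, for 6 member probes with a wide spread (top) and 4 with a small spread (bottom). On the upper probes Ftx-/Y eyes 2 and 3 lie with Ftx-/- eyes 1 to 3 of the same slide, below 0, while on the lower probes, chosen for a small spread within groups, Rps6 lies above 0 and Rps12 below 0 in all 11 Ftx-/- eyes, none of which shares a slide with the WT eyes.

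The probes with the smallest spread within groups varied little over slides 2 to 4, which that choice fixes. They were Rps13 A_55_P1963084 (SD 0.039), Rps12 A_55_P1989328 (0.042) and Rps6 A_55_P1963817 (0.044). Rps6 was higher than in WT females by 0.19, 0.19 and 0.23 on slides 2, 3 and 4, and Rps12 read 231110, 230010 and 235960 in WT females against 196600 to 219010 (median 212180), lower by 0.14 on each slide. Slides 2 to 4 share a scan that no WT eye had, and each difference uses the same WT eyes. With slide as a block the changes of Rps6 and Rps12 were 0.24 (adjusted p = 0.157) and -0.18 (adjusted p = 0.25). Rps13 gave 119640, 127460 and 126650 in WT females and 123290 to 134660 in Ftx-/- females, with a change of 0.04 that did not pass the test.

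Probes holding AATAAA and probes poor in G and C were frequent among the members that were higher on slide 3 than on slide 2. Of the 56 member probes holding AATAAA, 34 were higher and 0 lower on slide 3 than on slide 2, with a median of 0.27, while the other members gave 21 higher and 45 lower with a median of -0.10. Over all probes with AATAAA the counts were 588 higher and 189 lower, with a median of 0.053. Among the 20 most variable of the 178 members 15 held AATAAA, and among the 20 most variable of all 14063 probes 1 did. The second set is a far smaller part of its pool, so these counts do not compare members with other probes. AATAAA was held by 31.5% of members and 16% of all probes. Base composition moved with the same contrast. The median difference between slides 3 and 2 was 0.42 for member probes with at most 35% G and C and -0.26 for those over 50% (0.080 and -0.16 over all probes), and the median GC content was 36.7% in AATAAA members and 45% in the others. The part of each was not tested. The eye medians of the AATAAA probes were -0.18 to -0.10 for Ftx-/- eyes and -0.13 and -0.12 for Ftx-/Y eyes on slide 2, 0.094 to 0.159 on slide 3 and 0.051 to 0.152 on slide 4. These medians were well apart between slides 2 and 3 in eyes of the same genotype and sex. A single gene could go both ways: 37 genes had a probe higher on slide 3 than on slide 2, 33 a lower one and 11 both.

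**Figure D4:**
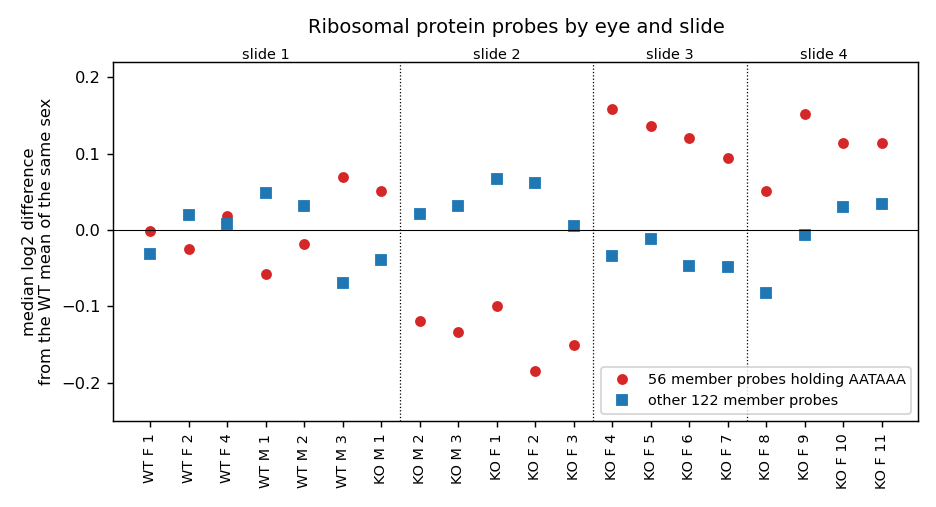
Median log2 difference from the WT mean of the same sex in each eye, for the 56 member probes holding AATAAA (red circles) and the other 122 (blue squares), with eyes ordered by slide. The AATAAA probes lie at -0.18 to -0.10 in all eyes of slide 2 and above 0 in all eyes of slides 3 and 4.

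The order of probes along the message was compared in the 42 genes with probes at least 60 bases apart at their own locus. The female change was higher at the 3′-most than at the 5′-most probe in 25 of them, with a median difference of 0.099, and in males in 19, with a median of -0.0067. By slide, the 3′ probe was the higher in 15 genes on slide 2 (median -0.081), 30 on slide 3 (0.213) and 27 on slide 4 (0.096), each against WT females, and in 27 for Ftx-/Y eye 1 (0.084). Rps16 followed this order, with female changes of -0.33, -0.09 and 0.11 from the 5′ to the 3′ probe, of which the first passed the test. What sets these differences between slides was not tested.

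The base composition of the probe moved with the change. Over members the female log2 change had a correlation with GC content of -0.463 (Pearson, across 178 probes of the same eyes, a description), and over all probes one of -0.486. Member probes with at most 35% G and C had a median female change of 0.068 (36 probes), and those over 50% one of -0.090 (27 probes). Over all probes these medians were 0.173 and -0.292. In males the correlation was 0.259 over members and -0.194 over all probes. With the trend taken out of each eye, 35 member probes rose and 2 fell in females (20.8% together), against 12.6% and 10.2% of all probes.

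**Figure D5:**
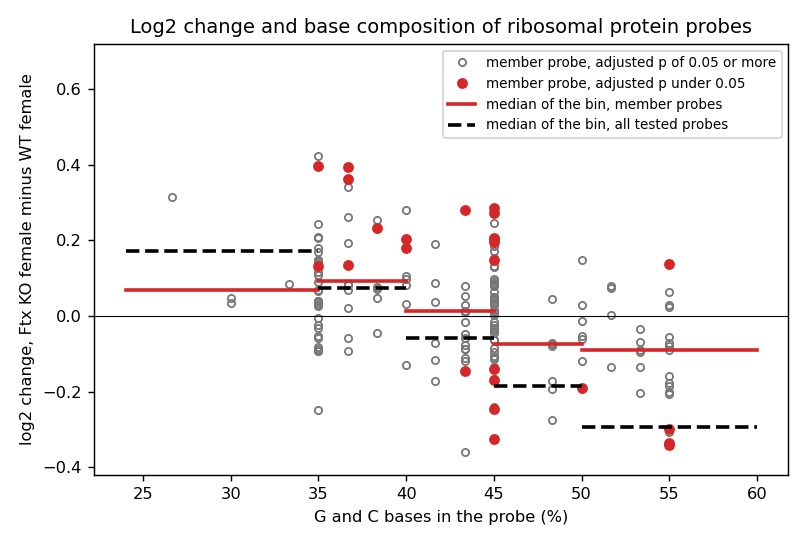
Female log2 change of each member probe against its share of G and C bases, with called probes filled, and the medians of composition bins for members (red lines) and all tested probes (dashed black lines). The medians fall from 0.068 to -0.090 over the members and from 0.173 to -0.292 over all probes.

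The files place 27 of 173 member probes, of 17 genes, on another chromosome than the gene's own. Processed copies of ribosomal protein genes are common in the mouse genome. Of these 27 probes, 1 was called up (Rpl14) and 2 down (Rps2, Rpl13) in females, where 35.1% of all probes were called. Without the 27 probes 22 member probes were called in females.

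Other parts of the ribosome and its pathway were read from fixed lists. Of 9 probes of ribosomal components that the name rule did not match, such as Rpsa, Fau and Gnb2l1, 0 were called in either sex. Their median female change was -0.070, with 1 at an unadjusted p under 0.05 in each sex (limma). Of 93 probes of ribosome biogenesis factors 17 rose and 8 fell in Ftx-/- females (median 0.048), with Sbds (0.40), which helps release Eif6 from the large subunit, higher and Eif6 A_52_P85864 (-0.36) lower, while the other Eif6 probe gave -0.14 and did not pass the test. A list of translation factors and other genes with TOP messages, such as Hnrnpa1, Nap1l1 and Vim, had 35 probes. Of these 8 rose and 1 fell (median 0.062). Among the rises were Eef2 A_66_P106191 (0.50 ± 0.083), the translocase, Tpt1 A_55_P2075013 (0.31 ± 0.047) and probes of Hnrnpa1 and Nap1l1. The fall was Eif3e (-0.30 ± 0.094). The other Tpt1 probes had changes of 0.07 and -0.12 that did not pass the test. Of 22 probes of regulators of TOP translation 8 rose and 5 fell, with Rheb A_55_P2129034 (0.69), Rps6kb1 A_51_P175205 (0.48) and Larp1 A_55_P1960456 (0.18) higher and Eif4ebp1 (-0.55), an inhibitor of Eif4e, lower. Other called probes of the list were Tsc1 (0.41), an inhibitor of mTOR signalling, Eif4e A_55_P1974533 (0.44) and Rragc A_51_P346826 (0.28) higher, and Rps6kb2 (-0.34), Mlst8 (-0.32), Akt1s1 (-0.30) and Eif4g1 (-0.22) lower. The other Larp1 probe gave 0.03, not past the test. The shares called in these lists are to be read against 35.1% of all probes. In the list on ribosomal protein surplus and p53, 1 of 9 probes rose (Ccng1, 0.42) and 5 fell, including Trp53 A_55_P1968068 (-0.84), Ube2o (-0.31) and Bag6 (-0.27). In the list on ribosome quality control, 3 of 11 rose, among them Pelo (0.33), and 1 fell. No probe of any of these lists was called in males.

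Cell type markers were read in the same eyes, against 35.1% of all probes called in females. Of 18 lens probes 15 fell in Ftx-/- females and none was called in males. The summed lens signal was 1590600 to 1867000 in WT females and 1217900 to 1641700 in Ftx-/- females. The summed signal of the ribosomal protein probes was 20031000 to 20442000 and 19921000 to 20991000 in the same groups. Of 14 retinal neuron probes 2 rose and 6 fell, of 12 progenitor probes 2 rose, and of 5 periocular mesenchyme probes 4 rose. The mesenchyme sums were 4685 to 6763 in WT females and 6929 to 53793 in Ftx-/- females. Of 10 erythroid probes 3 rose, with sums of 554220 to 611520 and 526580 to 900340, and in males 9 of 10 passed the fold limits upward (3.58% of all probes), with sums of 522740 to 666400 in WT and 735190 to 1267600 in Ftx-/Y. Of 5 pigment epithelium probes 1 rose, of 4 endothelium probes 1 fell and of 5 macrophage probes 1 rose. No muscle probe was tested, and the muscle sums were 175 to 2056 over Ftx-/- females. The part of cell make-up in the changes of ribosomal protein probes was not tested.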

How the data were processed

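Eyes of E13.5 embryos were measured on 31 arrays, with 62976 spots each, of which 3671 are controls. The authors deposited for each spot the intensity of Feature Extraction 11.0.1.1 (per the file headers), with background subtracted and no normalization between arrays. The series table they deposited holds the same intensities, rounded, and served, as log2, for an alternative.

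Intensities were normalized by the quantile-spline method named in the methods, with 100 samples, 5 iterations and an offset of 5 or more, programmed in R 4.3.3 (data.table, version 1.17.8). Spots flagged as outliers were left out (7 spots of member probes), and log2 values were averaged over copies of a probe and then over both arrays of an Ftx-/- eye. The 14063 probes whose signal averaged above 500 over the 6 WT eyes were tested with limma 3.58.1 in a fit over all 20 eyes, with a trend on the mean. Called means an adjusted p under 0.05 (Benjamini-Hochberg over all probes). The fit was tested on simulated data. The number of arrays limits the precision.

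The members and lists were chosen with earlier results of these data known. Named were X-linked members, the 5 largest consistent rises and falls (1 per gene) in each genotype comparison, paralogs, stalk genes, members known from mutants, genes with the most unequal probes, the 3 least variable probes and those at the signal limit. Other called or slide-dependent probes were named after their values were seen. Values of some genes are not reported here.

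Gene chromosomes and start sequences came from RefSeq tables of GRCm38.p6, in which 79 of 81 genes were found. Probe positions are mm9. Alternatives were other normalizations and filters, single arrays, the groups compared alone, blocks for slide, scan or replicate number, the trend with GC content taken out (natural spline, 4 degrees of freedom), averaged probes, leaving out each WT or Ftx-/Y eye, the methods' t-test and, chosen after seeing the data, subsets of slides and of probes by placement.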

Additional observations from a re-analysis of the deposited data

Results flagged for a closer look

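On 3 member probes every Ftx-/- female eye lay above the WT female mean and every Ftx-/Y male eye below the WT male mean. The female change minus the male change was 0.154 for Rps16 A_55_P1963061 (adjusted p = 0.38), 0.32 for Rps27l A_51_P246903 (adjusted p = 0.29) and 0.26 for Rps6 A_55_P1963817 (adjusted p = 0.15), with limma, and none passed the adjusted threshold. The probes were picked by these opposite directions, so the fitted differences follow in part from that choice. Opposite directions in all eyes of the 2 sexes were seen for 3 of 178 member probes (1.69%) and for 335 of all 14063 probes (2.38%).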

How the results depend on the processing

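In Ftx-/- against WT females, 25 member probes were called, and other normalizations, filters, single arrays and fits kept the count within 17 to 37. It was 8 with the series table, 0 with slide as a block, 0 with scan as a block (30 at an unadjusted p under 0.05), 6 with the probes of a gene averaged, 10 with the fold limits, 13 with the methods' t-test at its threshold and 63 with the eyes on slide 2 left out (41 higher and 22 lower). Leaving out 1 eye gave 14 (without WT female 1) to 27. The split of higher and lower calls moved with the scaling, to 6 and 24 with the 75th percentile, 22 and 9 with quantile normalization, 23 and 10 with normexp, 35 and 2 with the GC trend taken out, and 8 and 0 with the series table. With the replicate block the count was 12 (10 higher, 2 lower). With the fold limits 26.8% of all probes were called, and with averaged probes 17.2% of all genes rose and 18% fell. With the GC trend taken out 12.6% of all probes rose and 10.2% fell. Counts of the other alternatives are given here without the share of all probes, so they do not tell members from other probes. No pairing of the eyes by number was seen, as correlations of same-numbered deviations ran from -0.229 to 0.212. Of 3 male eyes 0 correlated best with their own number. With so few eyes in a group these values cannot exclude a pairing.

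In males the count of 0 became 2 with the fold limits, 1 with the methods' t-test at its threshold and 0 to 1 when 1 eye was left out (1 without WT male 3). Between WT sexes it became 2 with that t-test. The count for the difference of the sexes was 0 in the alternatives run with the adjusted threshold, and with the fold limits 3 were higher and 0 lower. The replicate block changed no other call.

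The median change in females (0.017) was -0.10 with the 75th percentile, 0.14 with the series table, where the median of all probes was 0.25, and 0.078 with the GC trend taken out, and 0.0032 to 0.017 when 1 eye was left out. In males (-0.025) it was -0.12, -0.014 with quantile normalization, -0.24 with the series table (-0.091 over all probes), -0.0083 with the GC trend taken out, -0.0089 with slide or scan as a block, with slide 2 left out or with slide 1 alone, and -0.047 to -0.015 when 1 eye was left out. Of the named probes, the 75th percentile turned Rplp2 to -0.044, Rpl13 A_55_P2009588 to -0.013 and Rpl27 to -0.012, and the GC correction turned Rpl27 to -0.023 and Rps15 to 0.024. A further 6 called probes kept their direction but no longer passed the threshold with the 75th percentile, and 9 with the GC correction. The cause was not tested. Leaving out saturated probes left nothing out, since no spot was saturated.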
